A study of Mus musculus with 5 samples.

Results

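The genes that place peptides on MHC class I were examined in single neutrophils of mice with and without AT3 tumours: 10 of the 32285 genes counted. They were chosen by name: the heavy chains H2-K1, H2-D1 and H2-Q10, the light chain B2m, the peptide transporter subunits Tap1 and Tap2, the loading factor Tapbp, the immunoproteasome subunits Psmb8 and Psmb9, and the transactivator Nlrc5. All 10 were in the files. No threshold on a measured value chose them, but earlier results of these data were known when the list was drawn up. Among them the largest difference between libraries was in H2-Q10, at 437 CPM (UMIs of the gene scaled by all UMIs of the same cells) in neutrophils of naive mice, 208 CPM in AT3 tumour-bearing mice and 83.0 CPM in AT3-gcsf tumour-bearing mice. H2-D1 stood at 2829, 2829 and 2869 CPM in the same order.

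MHC class I molecules show fragments of a cell's own proteins to CD8 T cells. The proteasome cuts the fragments, and in cells exposed to interferon its catalytic subunits are partly replaced by the immunoproteasome subunits. The TAP transporter carries the fragments into the endoplasmic reticulum, where tapasin helps to load them onto a heavy chain paired with beta-2 microglobulin. NLRC5 works at the promoters of these genes as the class I counterpart of CIITA, the class II transactivator. Neutrophils carry class I on their surface, and interferons are known to raise these genes in many cell types.

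Neutrophils were sorted by flow cytometry from bone marrow, peripheral blood and lung of female wild-type C57BL/6J mice. The mice were naive, carried AT3 tumours, or carried AT3-gcsf tumours; AT3 is a mouse mammary carcinoma line. The labels state neither the age and number of the mice nor whether cells of several mice were pooled. For each condition the cells of the 3 tissues were hashtagged and loaded together in 1 lane, in equal numbers per the labels, so that each condition is 1 library. The labels name the hashtags by number and do not tie them to tissues, mice or tumour stage, so the populations are called here by their hashtag: MHTO3, MHTO4 and MHTO5 in the naive library, MHTO7, MHTO8 and MHTO10 in the AT3 library, and MHTO3, MHTO4 and MHTO5 in the AT3-gcsf library. Hashtags with the same number in different libraries are not the same sample.

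Cells entered when 1 named hashtag made up at least 80% of the hashtag counts with at least 20 counts, and when S100a8 and S100a9, the calprotectin genes that fill neutrophil RNA, made up at least 2% of the cell's UMIs (unique transcript counts). This left 7011 naive, 7438 AT3 and 10063 AT3-gcsf cells, with 26566384, 50140655 and 89053674 UMIs. Median UMIs per cell were 2775, 4812 and 7611, so the cells of the tumour libraries were deeper. The 10 listed neutrophil markers all reached 20 CPM in each library. Between 14 and 18 cell barcodes were shared between the kept cells of any pair of libraries. With 1 library per condition there is no replicate and no test: intervals are 95% exact Poisson or binomial intervals that cover counting error only, and condition and lane cannot be told apart. Fewer expressing cells and less RNA per cell cannot be told apart in the sums either.

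Most of the genes lie in the mouse MHC region of chromosome 17. On GRCm38, H2-K1 spans chr17:33996017-34000347 on the minus strand, H2-D1 chr17:35262730-35267499 and H2-Q10 chr17:35470089-35474563 on the plus strand. Psmb9 (chr17:34181987-34187764, minus strand), Tap1 (chr17:34187553-34197225), Psmb8 (chr17:34197721-34201454) and Tap2 (chr17:34203527-34216321) lie side by side, and Tapbp is at chr17:33915899-33929292. B2m is at chr2:122147686-122153083 and Nlrc5 at chr8:94434356-94527272, both on the plus strand. All are protein-coding genes. The heavy chains are close paralogs, and no label or header states how reads matching several of them were counted, so the split of counts among H2-K1, H2-D1, H2-Q10 and the other H2-Q genes is uncertain.

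The promoters of the heavy chains, B2m and Tap1 are shown because these genes did not move together below. Each is the 250 bases before the RefSeq start on GRCm38.p6, written 5′ to 3′ along the gene. Capitals mark letters found on either strand of ATTGG (the Y box), TGACG (part of the X2 box), TTCNNTTTC (the core of an interferon-stimulated response element), TTCNNNGAA (a GAS element), GGGATTCCC (the kB site of enhancer A) and TTTCACTTC (an interferon response sequence, added after the promoters had been viewed). H2-K1 is chr17:34000348-34000597 on the minus strand, and the others are on the plus strand: H2-D1 chr17:35262844-35263093, H2-Q10 chr17:35469839-35470088, B2m chr2:122147437-122147686 and Tap1 chr17:34187306-34187555.
H2-K1: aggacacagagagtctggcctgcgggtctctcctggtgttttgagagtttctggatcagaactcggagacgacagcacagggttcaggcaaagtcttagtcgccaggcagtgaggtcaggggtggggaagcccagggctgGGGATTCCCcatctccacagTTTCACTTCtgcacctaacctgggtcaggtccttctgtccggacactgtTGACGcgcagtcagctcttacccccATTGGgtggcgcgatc
H2-D1: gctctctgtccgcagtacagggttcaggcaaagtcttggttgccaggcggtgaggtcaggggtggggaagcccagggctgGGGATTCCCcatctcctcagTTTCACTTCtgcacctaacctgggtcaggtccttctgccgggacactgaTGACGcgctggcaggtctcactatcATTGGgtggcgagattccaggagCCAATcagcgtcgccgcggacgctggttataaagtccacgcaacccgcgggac
H2-Q10: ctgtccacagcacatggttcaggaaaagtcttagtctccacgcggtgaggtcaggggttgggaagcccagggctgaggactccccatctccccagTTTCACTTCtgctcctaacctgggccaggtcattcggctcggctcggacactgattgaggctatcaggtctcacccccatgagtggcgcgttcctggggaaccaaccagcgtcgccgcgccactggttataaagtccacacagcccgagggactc
B2m: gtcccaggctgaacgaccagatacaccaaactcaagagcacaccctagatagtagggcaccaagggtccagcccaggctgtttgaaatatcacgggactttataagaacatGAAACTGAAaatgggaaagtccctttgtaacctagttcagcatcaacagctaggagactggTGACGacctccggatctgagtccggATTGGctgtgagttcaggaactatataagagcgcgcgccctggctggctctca
Tap1: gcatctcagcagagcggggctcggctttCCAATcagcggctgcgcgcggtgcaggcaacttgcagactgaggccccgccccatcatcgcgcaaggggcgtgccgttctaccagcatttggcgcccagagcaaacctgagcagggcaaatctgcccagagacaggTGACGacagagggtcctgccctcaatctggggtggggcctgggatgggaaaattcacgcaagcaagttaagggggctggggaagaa

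Of the 10 genes, 8 had a promoter in the RefSeq table. TGACG was in 5 of the 8 (H2-K1, H2-D1, B2m, Tap1 and Psmb9) against 17.9% of 27025 promoters of the same length, and ATTGG in 6 of the 8 (the same 5 and Tapbp) against 34.5%. GGGATTCCC was in H2-K1 and H2-D1, and in 0.311% of all promoters. TTTCACTTC was in H2-K1, H2-D1 and H2-Q10, and in 0.429% of all promoters. TTCNNTTTC was in B2m only among the 8, against 7.16%, and TTCNNNGAA in Psmb8 only, against 7.18%. In the H2-Q10 window TTTCACTTC was the only one of these motifs found, which says only that these letters are not in this window. TTTCACTTC began 90 bases before the start in H2-K1, 150 in H2-D1 and 155 in H2-Q10. The windows of H2-K1 and H2-D1 are therefore not aligned with each other. The windows of H2-D1, Tapbp, Psmb8 and Psmb9 lie wholly inside their GENCODE genes, past the GENCODE start. Among the sites counted above this holds for the ATTGG of Tapbp and the TTCNNNGAA of Psmb8. Tap1 and Psmb9 run in opposite directions and share 225 of these bases. Their TGACG is the same site read on opposite strands, and so is their ATTGG, so each of these sites is counted for both genes above.

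The 3 heavy chains differed in how far they varied among the 9 populations, as the plot of heavy chains and B2m shows. H2-K1, a classical heavy chain, stood at 898 CPM in naive MHTO3, 316 CPM in MHTO4 and 880 CPM in MHTO5, at 255, 486 and 553 CPM in AT3 MHTO7, MHTO8 and MHTO10, and at 296, 280 and 301 CPM in AT3-gcsf MHTO3, MHTO4 and MHTO5. All 3 AT3-gcsf populations thus lay below all 3 naive populations, and the AT3 populations spread across both. H2-D1, the other classical heavy chain of this strain, was at 4204, 1490 and 3959 CPM in the naive populations, at 2067, 3262 and 3602 CPM in AT3, and at 3067, 2591 and 2994 CPM in AT3-gcsf. Its populations overlapped in every pair of libraries.

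H2-Q10, a class Ib heavy chain known as a secreted product of liver, stood at 784 CPM in naive MHTO3, 126 CPM in MHTO4 and 673 CPM in MHTO5. It was at 86.8, 235 and 411 CPM in AT3 MHTO7, MHTO8 and MHTO10, and at 94.9, 87.9 and 71.4 CPM in AT3-gcsf MHTO3, MHTO4 and MHTO5. The AT3-gcsf populations were all below the naive ones, and AT3 MHTO7 sat among them. B2m, the light chain shared by all class I molecules, was at 1959, 858 and 1780 CPM in the naive populations, 508, 1009 and 1429 CPM in AT3, and 664, 473 and 593 CPM in AT3-gcsf. Its AT3-gcsf values were again all below the naive ones, the lowest of which, MHTO4, was above AT3 MHTO7.

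**Figure D1:**
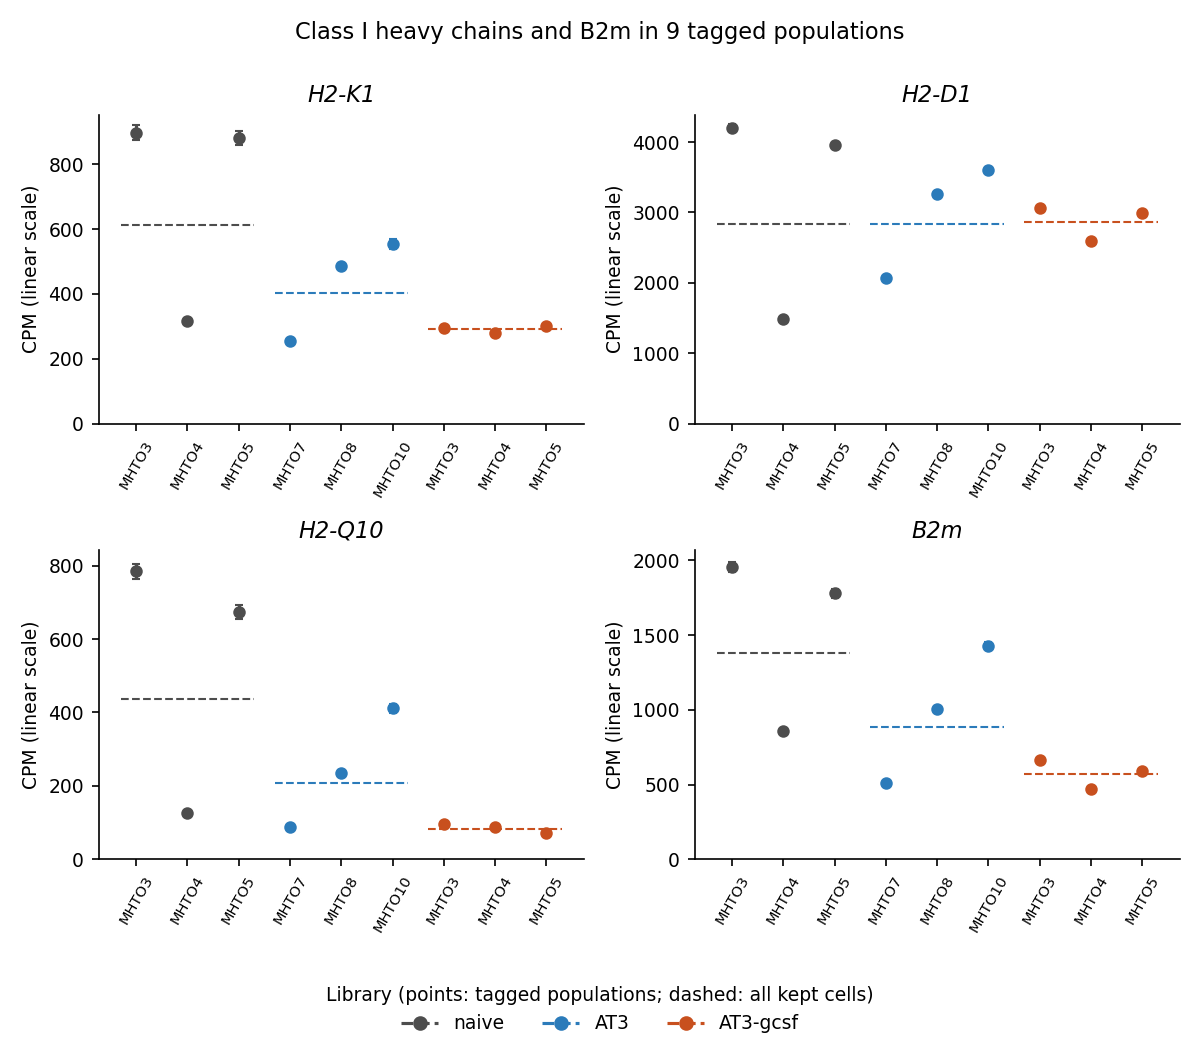
Level in CPM (linear axis from 0) of H2-K1, H2-D1, H2-Q10 and B2m in each hashtagged population; bars are 95% Poisson intervals, often smaller than the point, and dashed lines the library sums. The AT3-gcsf populations of H2-K1, H2-Q10 and B2m lie below every naive population, and those of H2-D1 do not.

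Within the naive library all 10 genes were lowest in MHTO4, the population richest in Camp, a secondary granule gene of immature neutrophils (21031 CPM against 886 and 687). There 4 of 9 genes compared were at least 2-fold below both other populations: H2-K1, H2-D1, H2-Q10 and B2m, against 10.4% of 4621 genes. Within the AT3 library all 10 were lowest in MHTO7, again the population with most Camp (10517 CPM), and all 10 were highest in MHTO10; H2-Q10 alone was 2-fold below both others in MHTO7, against 6.75% of 3940 genes. In the AT3-gcsf library none of the 9 compared was 2-fold apart from both other populations. Few genes of any kind were: by population, 0% to 0.836% of 3587 genes lay below both others and 0.0279% to 5.27% above both. Camp was at 227 to 960 CPM in the AT3-gcsf populations. The ranks of all 10 include Nlrc5, which was below 20 CPM, and the share of all genes with the same ranks was not counted. S100a8 and S100a9 made up a median of 37.2% of UMIs in naive MHTO4 and 38.7% in AT3 MHTO7. In the other naive and AT3 populations they made up 11.1% to 20.4%, and the part of this in the CPM ranks was not tested.

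Set against H2-D1 in the same cells, H2-K1 differed between libraries more than between populations. For each 100 H2-D1 UMIs there were 21.6 H2-K1 UMIs in naive cells (interval from 21.3 up), 14.2 in AT3 cells (14.0 to 14.4) and 10.2 in AT3-gcsf cells (10.1 to 10.3). The 3 naive populations ran from 21.2 to 22.2, the AT3 populations from 12.3 to 15.4 and the AT3-gcsf populations from 9.65 to 10.8, so the 3 libraries did not overlap. This ratio does not use the total count, so it is the same under any scaling. It does depend on H2-D1, whose log2 ratio against naive was above the median of all genes, by 0.34 in AT3 and 0.39 in AT3-gcsf. The share of all genes whose ratio to H2-D1 separates the libraries was not computed.

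H2-Q10 per 100 H2-D1 UMIs was 15.5 in naive, 7.35 in AT3 and 2.89 in AT3-gcsf, and here populations differed within a library as well (8.45 to 18.7 among naive, 4.20 to 11.4 among AT3, 2.39 to 3.39 among AT3-gcsf populations). B2m was at 48.8, 31.2 and 19.8 UMIs per 100 H2-D1 UMIs. Its populations ran from 45.0 to 57.6, from 24.6 to 39.7 and from 18.3 to 21.7, with no overlap between libraries. As for H2-K1, no share of all genes stands beside this. The plot of UMIs relative to H2-D1 shows the steps.

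**Figure D2:**
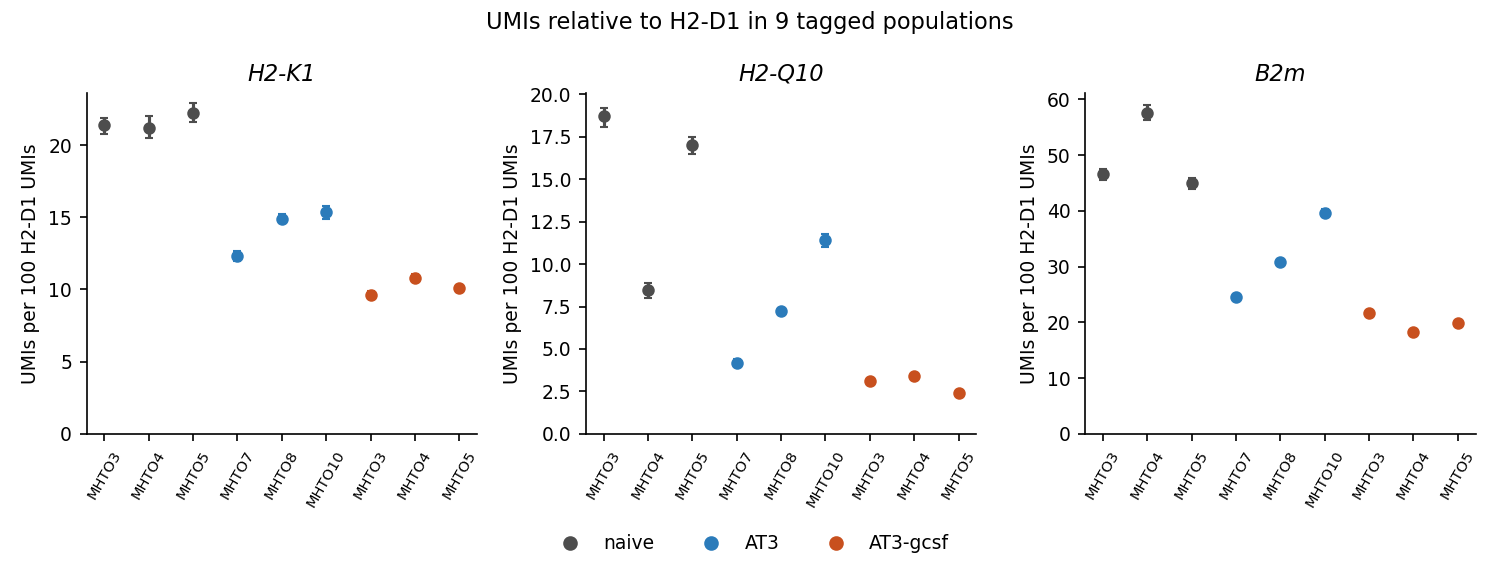
UMIs of H2-K1, H2-Q10 and B2m per 100 H2-D1 UMIs (linear axis from 0) in each hashtagged population, with 95% binomial intervals. H2-K1 forms 3 separate levels, at 21.2 to 22.2, 12.3 to 15.4 and 9.65 to 10.8.

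Counts per cell read differently from CPM because the cells differ in depth. H2-K1 averaged 2.32, 2.71 and 2.59 UMIs per cell in naive, AT3 and AT3-gcsf, and B2m 5.23, 5.95 and 5.03. H2-D1 averaged 10.7, 19.1 and 25.4 UMIs per cell, and H2-Q10 1.66, 1.40 and 0.734. So H2-K1 and B2m had similar UMIs per cell in libraries whose total UMIs per cell differed, and H2-D1 kept pace with the total.

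None of the genes of peptide supply and loading differed by 2-fold between library sums. Tap1, a subunit of the peptide transporter, stood at 97.1 CPM in naive MHTO3, 37.1 CPM in MHTO4 and 47.4 CPM in MHTO5, at 42.1, 57.3 and 104 CPM in AT3 MHTO7, MHTO8 and MHTO10, and at 54.6, 39.9 and 38.3 CPM in AT3-gcsf MHTO3, MHTO4 and MHTO5. Its highest values were those of naive MHTO3 and AT3 MHTO10. Tap2, its partner subunit, stayed between 50.9 and 88.9 CPM in all 9 populations. Tapbp, which encodes tapasin, was at 206, 93.3 and 175 CPM in naive, 74.4, 123 and 173 CPM in AT3, and 102, 87.7 and 90.6 CPM in AT3-gcsf, with overlap in every pair of libraries.

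Psmb8 and Psmb9 encode catalytic subunits of the immunoproteasome. Psmb8 was at 205, 86.7 and 148 CPM in the naive populations, 119, 135 and 190 CPM in AT3, and between 84.3 CPM (MHTO5) and 113 CPM (MHTO3) in AT3-gcsf. All 3 AT3-gcsf values of Psmb8 were below all 3 AT3 values. Psmb9 was at 184, 85.5 and 111 CPM in naive, 108, 130 and 177 CPM in AT3, and 125, 122 and 97.9 CPM in AT3-gcsf, and its libraries overlapped. Nlrc5, the transactivator, was sparse: 264, 315 and 245 UMIs in all, or 9.94, 6.28 and 2.75 CPM (intervals 8.77 to 11.2, 5.61 to 7.02 and 2.42 to 3.12). It was under the 20 CPM needed for a comparison, with its highest population, naive MHTO5, at 19.2 CPM.

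**Figure D3:**
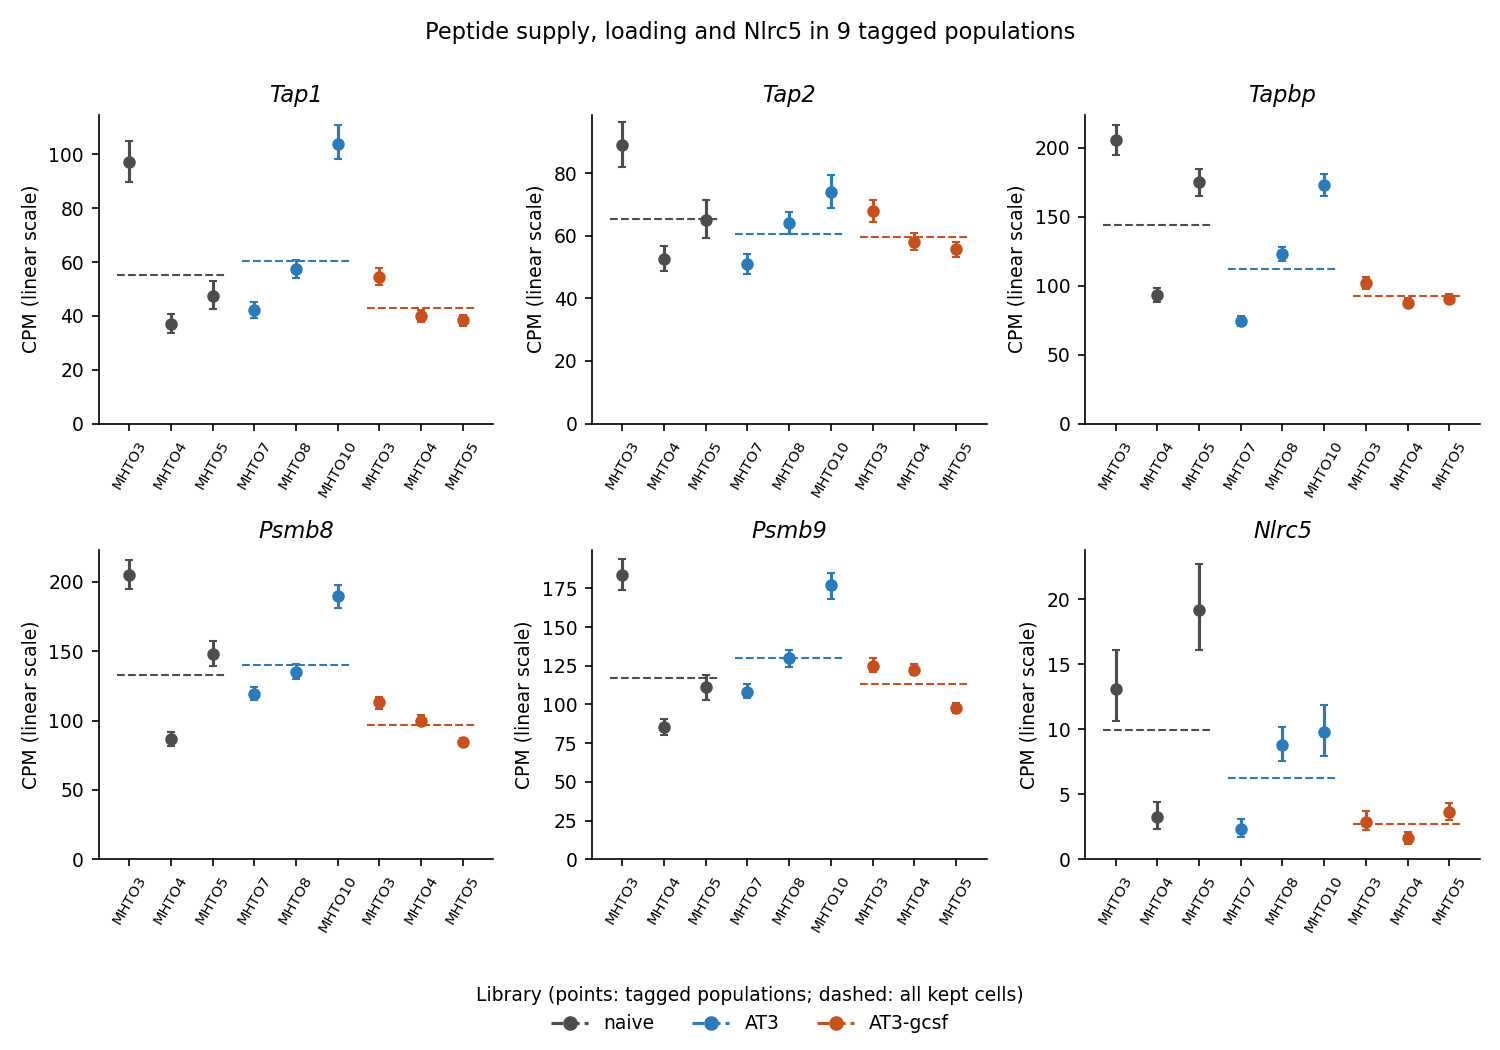
Level in CPM (linear axis from 0) of Tap1, Tap2, Tapbp, Psmb8, Psmb9 and Nlrc5 in each hashtagged population; bars are 95% Poisson intervals and dashed lines the library sums. Tap1, Psmb8 and Psmb9 are highest in naive MHTO3 and AT3 MHTO10, and Nlrc5 stays below 20 CPM throughout.

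The first comparison asks how neutrophils of AT3 tumour-bearing mice differ from naive ones. A gene was compared when its higher sum reached 20 CPM and called when the log2 ratio, after 5 CPM were added to both sums, was at least 1 in size. Of 9 genes compared, 1 was called lower, H2-Q10 (log2 ratio -1.05), against 6.35% of 3939 genes; its populations overlapped. H2-K1 (-0.60), B2m (-0.64) and Tapbp (-0.34) were lower by less than 2-fold. H2-D1 (0.00), Tap1 (0.12), Tap2 (-0.10), Psmb8 (0.07) and Psmb9 (0.14) were within 0.14 of 0. With TMM factors, which assume that most genes do not change, H2-Q10 was no longer called (-0.57), H2-D1 was at 0.49, and Tap2 (0.35) and Tapbp (0.13) turned positive. The call was also lost with the total taken without the 20 most abundant genes (-0.87), with all tagged cells (-0.98) and with thinned cells (-0.86). The median was -0.10 over the 9 genes and -0.34 over all genes compared, and no gene of the 9 had all AT3 populations below all naive ones, against 12.7% of all genes. The H2-Q10 call was lost when naive MHTO3 (-0.60), naive MHTO5 (-0.76) or AT3 MHTO7 (-0.56) was left out, and without naive MHTO4 3 genes were called: H2-K1 (-1.13), H2-Q10 (-1.78) and B2m (-1.08).

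The second comparison asks how AT3-gcsf differs from naive. Here 3 of 9 genes were called lower, H2-Q10 at 83.0 against 437 CPM (log2 ratio -2.33, 5.27-fold by CPM, interval 5.12 to 5.43), B2m at 568 against 1381 CPM (-1.27, 2.43-fold, 2.40 to 2.46) and H2-K1 at 292 against 612 CPM (-1.05, 2.09-fold, 2.05 to 2.14). In this comparison 21.0% of 4106 genes were called lower, so a count of 3 in 9 stands near a high background. All 3 had their AT3-gcsf populations below every naive population, as did 29.5% of all genes. H2-D1 was at 0.02 and Psmb9 at -0.05, while the median over all genes was -0.37 and over the 9 genes -0.44. Tap1 (-0.33), Tap2 (-0.12), Tapbp (-0.61) and Psmb8 (-0.44) were not called, nor was any gene called higher.

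Scaling matters most for this comparison. With TMM factors the median of all genes moved from -0.37 to 0.26, the calls over all genes from 21.0% lower and 5.38% higher to 7.18% lower and 13.6% higher, and H2-K1 (-0.45) and B2m (-0.67) were no longer called; H2-Q10 was (-1.74), and H2-D1 stood at 0.62. Tap1 (0.22), Tap2 (0.44), Psmb8 (0.14) and Psmb9 (0.53) turned positive. H2-K1 was also not called with the total taken without the 20 most abundant genes (-0.90) or with S100a8 and S100a9 at 5% or more (just short of 2-fold). Without naive MHTO3 H2-K1 was at -0.80 and without naive MHTO5 at -0.82, also not called. H2-Q10 and B2m were called with each of the 6 populations left out in turn.

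The third comparison sets AT3-gcsf against AT3. H2-Q10 was called lower at 83.0 against 208 CPM (log2 ratio -1.28), 1 of 9 genes against 2.56% of 3551 genes. B2m (-0.63), Psmb8 (-0.51), H2-K1 (-0.45) and Tap1 (-0.45) were lower by less than 2-fold, and H2-D1 (0.02; -0.02 with the total taken without the 20 most abundant genes) and Tap2 (-0.02; 0.08 with TMM factors) were level. Tapbp was at -0.27 and Psmb9 at -0.19 (0.23 and 0.16 in cells without an interferon-stimulated UMI). The median was -0.45 over the 9 genes and -0.02 over all genes. Psmb8 alone of the 9 had all AT3-gcsf populations below all AT3 populations, against 9.60% of all genes. Without AT3 MHTO10 H2-Q10 was at -0.88, not called, and without AT3 MHTO7 B2m was called as well (-1.02). The comparisons share libraries, so they are not independent of each other.

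**Figure D4:**
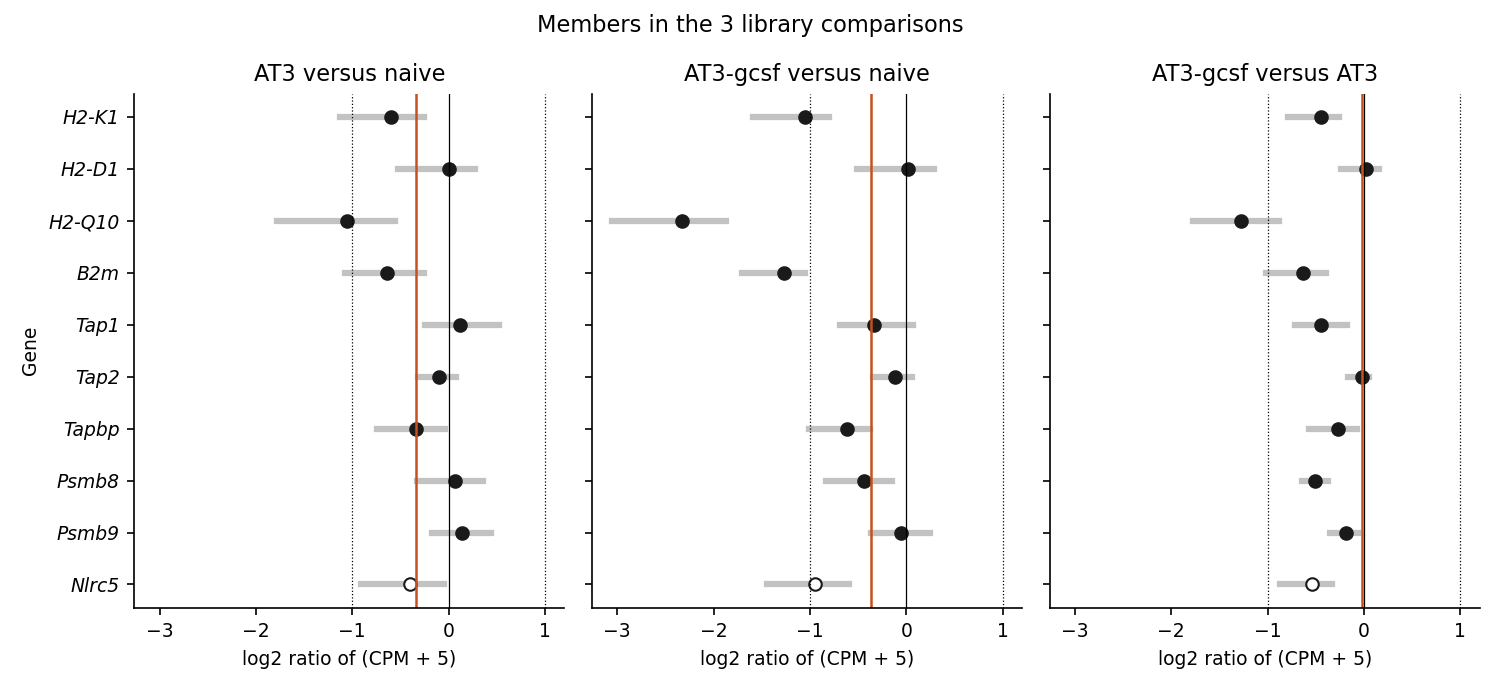
Log2 ratio of (CPM + 5) of each gene in the 3 library comparisons (points, open where the gene was below 20 CPM), with the range when 1 population was left out (grey bars). The orange line is the median of all genes compared and the dotted lines mark 2-fold; H2-Q10 lies farthest left in each panel, at -1.05, -2.33 and -1.28.

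The populations of a library differ in state, so they were also set side by side by their leading genes: the one with most Cxcl2, a chemokine gene (naive MHTO5, AT3 MHTO8, AT3-gcsf MHTO5), the one with most Camp (naive MHTO4, AT3 MHTO7, AT3-gcsf MHTO4) and the remaining one (naive MHTO3, AT3 MHTO10, AT3-gcsf MHTO3). This matching was known from earlier results of these data. In AT3-gcsf against naive H2-K1 differed by -1.53 in the Cxcl2-rich, -0.17 in the Camp-rich and -1.58 in the remaining population on the log2 scale, and H2-Q10 by -3.15, -0.49 and -2.98. B2m differed by -1.58, -0.85 and -1.55. The median of all genes was -0.44, -0.04 and -0.61. The Camp-rich populations are not alike, at 21031 CPM of Camp in naive and 960 CPM in AT3-gcsf.

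Maturation was therefore read cell by cell, from genes that are not among the 10. Each cell of at least 1000 UMIs was thinned to 1000, and its UMIs of 9 secondary granule genes were counted; granule-high cells had 20 or more and granule-low cells 2 or fewer. These are ranges of a score and not cell types; 1 to 127 cells of a population lay within 1 UMI of the high threshold, and 202 naive, 54 AT3 and 72 AT3-gcsf cells were too shallow to enter. In 7 populations with at least 50 cells of each, the genes other than Nlrc5, which was below 20 CPM in each, were lower in granule-high cells. The median of all genes was lower too, at -1.0 to -0.67. H2-D1 in the AT3-gcsf populations, and Tap2 in AT3 MHTO7 and MHTO10 and AT3-gcsf MHTO4 and MHTO5, lay above that median (H2-D1 at -0.64 against -1.0 in AT3-gcsf MHTO4). H2-Q10 (log2 ratios -4.20 to -2.76, median -3.21), H2-K1 (-1.88 to -1.39) and B2m (-1.85 to -1.15) were at least 2-fold lower in 7 of 7. Tap1, Tapbp, Psmb8 and Psmb9 were 2-fold lower in 6 of 7, H2-D1 in 3 of 7 and Tap2 in 0 of 7. The background was large: 31.1% of genes were 2-fold lower in naive MHTO4, 41.7%, 35.2% and 43.0% in AT3 MHTO7, MHTO8 and MHTO10, and 37.8%, 50.1% and 28.6% in AT3-gcsf MHTO3, MHTO4 and MHTO5. Granule-high cells also had more UMIs, for example a median of 7873 against 2441 in naive MHTO4; with counts thinned to 1000 UMIs per cell 46 of the 48 2-fold values were found. Naive MHTO3 and MHTO5 had 21 and 15 granule-high cells and are left out of these counts.

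Granule-low cells alone still differed between libraries in H2-Q10, H2-K1 and B2m. H2-Q10 was at 845, 638 and 705 CPM in granule-low cells of naive MHTO3, MHTO4 and MHTO5, at 416, 375 and 554 CPM in AT3 MHTO7, MHTO8 and MHTO10, and at 226, 201 and 151 CPM in AT3-gcsf MHTO3, MHTO4 and MHTO5. The 3 libraries did not overlap. B2m ran from 1725 to 2112 CPM in naive, 1232 to 1823 CPM in AT3 and 882 to 1121 CPM in AT3-gcsf populations. H2-K1 was at 933, 716 and 900 CPM, at 666, 697 and 746 CPM, and at 536, 560 and 509 CPM, so for both genes naive and AT3 overlapped and AT3-gcsf lay below both. H2-D1 was at 4403, 3716 and 3975 CPM, at 3983, 3912 and 4202 CPM, and at 4028, 3132 and 3543 CPM, overlapping throughout. These values were chosen for display after the ranges had been computed. The share of all genes that separate the libraries in granule-low cells was not computed. Over all cells, 29.5% of genes had every AT3-gcsf population below every naive one. The share was 12.7% for AT3 below naive and 9.60% for AT3-gcsf below AT3. Camp itself was at 10567, 5347 and 552 CPM in naive, AT3 and AT3-gcsf, so the same granule count need not mean the same maturity.

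Interferon responses were read the same way, from 22 interferon-stimulated genes that include none of the 10. Interferon-high cells had 5 or more of 1000 UMIs and interferon-low cells 0, with 91 to 586 cells of a population within 1 UMI of the high threshold. High cells made up 4.84% of naive MHTO4 and 21.4% of naive MHTO5, 10.3%, 21.3% and 33.2% of AT3 MHTO7, MHTO8 and MHTO10, and 1.87% to 4.48% of the AT3-gcsf populations. The share was highest in AT3 MHTO10 and lowest in AT3-gcsf MHTO4. Of the genes other than Nlrc5, all had log2 ratios above 0 in 9 of 9 populations, where the median of all genes was also above 0, at 0.03 to 0.37. Each ratio exceeded that median except H2-Q10 in naive MHTO5 (0.02), and the counting intervals of H2-Q10 and Tap2 in naive MHTO5 included no difference. Tap1 was at least 2-fold higher in 9 of 9 (log2 ratios 1.03 to 1.96, median 1.60), Psmb8 in 7 (median 1.31) and Psmb9 in 6 (median 1.10). For Tap1 this meant, in AT3 MHTO10, 171 CPM in high and 49.1 CPM in low cells.

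H2-K1 (median 0.79), H2-D1 (0.41), H2-Q10 (0.62), B2m (0.69), Tap2 (0.71) and Tapbp (0.72) were 2-fold higher in 1 or 2 of 9 populations. Nlrc5 reached 20 CPM only in the high cells of the naive populations (26.9 against 2.09 CPM in MHTO4, 23.7 against 9.20 in MHTO3, 28.4 against 14.6 in MHTO5); having passed through the range where it is high, it is given by its values only. Of all genes, 2.37%, 17.0% and 2.44% were called higher in naive MHTO3, MHTO4 and MHTO5, 11.7%, 3.25% and 3.81% in AT3 MHTO7, MHTO8 and MHTO10, and 3.32%, 3.39% and 2.57% in AT3-gcsf MHTO3, MHTO4 and MHTO5. In the 2 populations with the highest background, naive MHTO4 and AT3 MHTO7, the high cells had fewer UMIs than the low cells (medians of 2900 against 6685 and 5806 against 13184). These 2 populations also hold the largest shares of granule-high cells, 57.7% and 45.2%. The 2-fold values of H2-K1, H2-D1 and H2-Q10 were all in these 2.

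**Figure D5:**
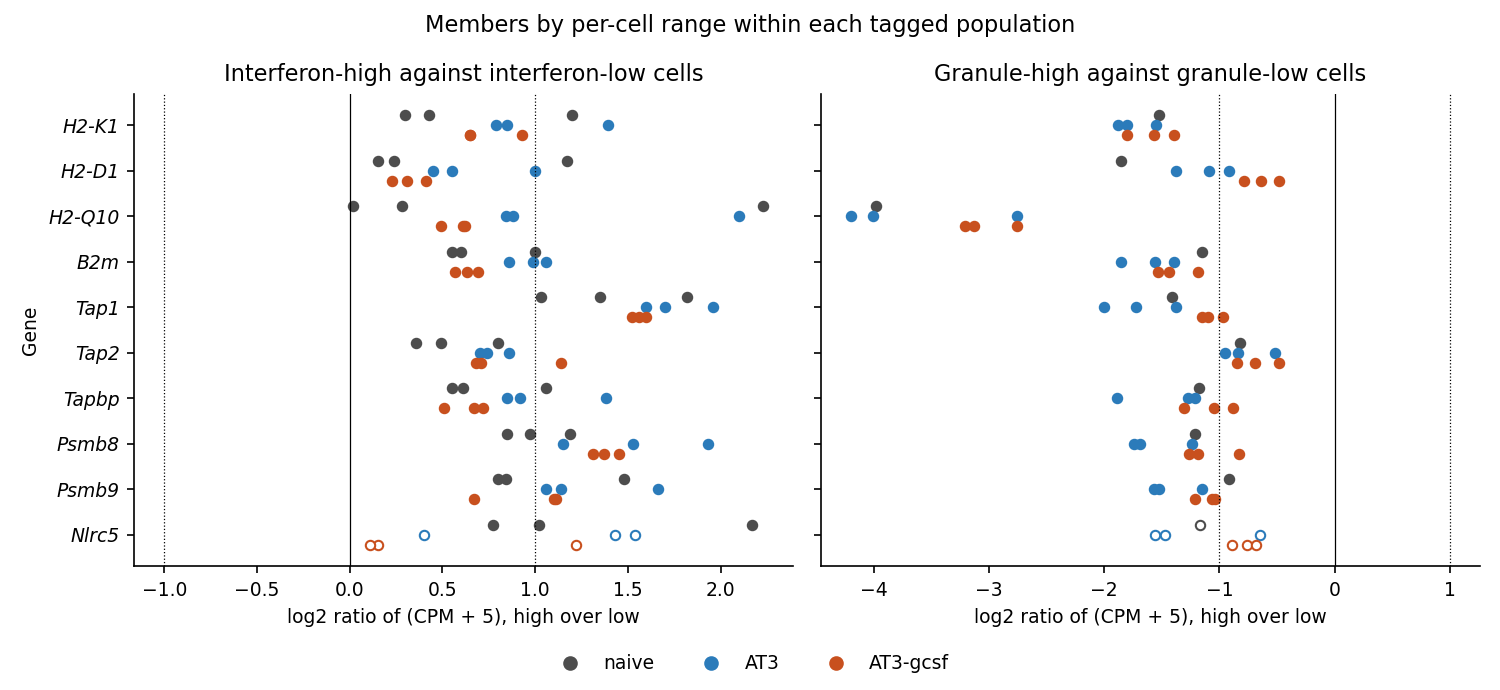
Log2 ratio of (CPM + 5) of each gene in interferon-high over interferon-low cells (left, 9 populations) and in granule-high over granule-low cells (right, 7 populations), 1 point per hashtagged population, open where below 20 CPM. The median of all genes is 0.03 to 0.37 on the left and -1.0 to -0.67 on the right; Tap1 is past 2-fold in 9 of 9 on the left.

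When only cells without an interferon-stimulated UMI were summed (2257 naive, 1504 AT3 and 4508 AT3-gcsf cells), AT3-gcsf against AT3 came to 0.04 for H2-K1, -0.13 for B2m, 0.17 for Tap1, -0.14 for Psmb8 and -0.51 for H2-Q10, so that no gene was called. H2-D1 was at 0.40, Tapbp at 0.23 and Psmb9 at 0.16, so H2-K1, Tap1, Tap2 (0.15), Tapbp and Psmb9 changed sign against the sums over all cells. The mix of populations changed too: MHTO7 gave 1971 of 7438 kept AT3 cells and 724 of these 1504. H2-Q10 in these cells was at 49.4, 172 and 285 CPM in AT3 MHTO7, MHTO8 and MHTO10. In the like populations, AT3-gcsf MHTO4, MHTO5 and MHTO3, it was at 78.7, 65.3 and 75.2 CPM. H2-K1 was at 195, 359 and 409 CPM, against 267, 277 and 254 CPM, in the same order. The part of this mix in the ratios was not tested. Against naive, H2-Q10 was still called lower in AT3-gcsf (-1.70), and B2m (-0.95) and H2-K1 (-0.65) were not. H2-D1 was at 0.46 there. AT3 against naive came to -1.19 for H2-Q10, -0.69 for H2-K1 and -0.83 for B2m, each at least as low as over all cells.

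Other genes of the pathway were taken from lists drawn up by function. Of 18 other class I heavy chains, 4 were compared with naive cells, and H2-Q7 was called lower in AT3 (5.92 against 21.8 CPM) and in AT3-gcsf (0.629 CPM), as was H2-Q4 in AT3-gcsf (11.6 against 28.8 CPM). These are 1 of 4 and 2 of 4, beside 6.35% and 21.0% of all genes. H2-Q7 in both comparisons, and H2-Q4 in AT3-gcsf against naive, passed the 20 CPM minimum only through the naive library. H2-T23, which encodes the Qa-1 heavy chain, was at 209, 220 and 177 CPM. Of 11 partners in peptide supply and loading, 1 of 6 compared was called, Lnpep (an aminopeptidase), at 72.1 CPM in AT3-gcsf against 168 in naive. Of the 14 subunits of the constitutive proteasome, 14 were compared and 0 called in each comparison.

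Among 23 regulators and receptors that act on class I genes, none of 16 compared was called in AT3 against naive, where 2.06% of all genes were called higher. In AT3-gcsf against naive 3 of 16 were called lower, near the 21.0% of all genes called lower. Among them were Nfkb1, an NF-kB subunit (52.6 against 128 CPM), and Creb1 (19.3 against 52.1 CPM). Creb1 passed the 20 CPM minimum only through the naive library. Ifngr1, a chain of the interferon gamma receptor, was higher at 559 against 119 CPM, among 5.38% of genes called higher, and higher again against AT3 (243 CPM), among 2.42%. Of the interferon-stimulated genes, 7 of 17 compared were called lower in AT3-gcsf against naive (21.0% of all genes), led by Rsad2 (log2 ratio -3.02), Cmpk2 (-3.01), Ifit3 (-2.24), Ifit3b (-2.24), Isg15 (-2.00) and Oas3 (-1.39). Against AT3, 11 of 18 were lower (2.56% of all genes), led by Ifit3 (-2.40), Rsad2 (-2.26), Ifit3b (-2.25), Cmpk2 (-2.09), Ifit1 (-1.89) and Isg15 (-1.78). In AT3-gcsf Rsad2, Cmpk2, Ifit3 and Ifit3b were at 14.7, 3.64, 6.04 and 3.53 CPM. In both comparisons these genes passed the 20 CPM minimum only through the other library, where they were high. In AT3 against naive 2 of 18 were called higher, Gbp2 (134 against 35.3 CPM) and Zbp1 (58.5 against 21.3 CPM).

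The class II genes H2-Aa, H2-Ab1, H2-Eb1 and Cd74, which serve antigen presentation to CD4 T cells, were 4 of 4 compared lower in AT3 (log2 ratios -2.46 to -1.81) and in AT3-gcsf (-3.20 to -2.39) against naive, where 6.35% and 21.0% of all genes were lower. H2-Aa, H2-Ab1 and H2-Eb1 passed the 20 CPM minimum only through the naive library, where they were high. In AT3-gcsf against naive the same held for Cd74 (10.3 against 135 CPM). Of 9 secondary granule genes, 1 was lower in AT3 against naive (Chil3, -1.06), 6 in AT3-gcsf against naive, led by Camp (-4.25), and 4 in AT3-gcsf against AT3, beside 6.35%, 21.0% and 2.56% of all genes.

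Markers of some other cells also moved with the libraries. MHC class II genes summed to 249, 37.4 and 14.1 CPM in naive, AT3 and AT3-gcsf (populations from 87.6 to 603, from 10.4 to 77.4 and from 6.59 to 22.6), with none of 7 at 0 in any library sum. The 8 B cell markers summed to 139, 30.1 and 10.7 CPM, and the 9 T and NK cell markers to 29.0, 6.38 and 3.77 CPM. The 6 erythroid markers, with globin genes in the lead, summed to 332, 280 and 0.191 CPM, and the 7 epithelial markers to 430, 129 and 66.5 CPM. Other lists did not fall in these steps. Macrophage and monocyte markers summed to 104, 85.1 and 88.2 CPM, and eosinophil and basophil markers to 25.0, 16.5 and 24.4 CPM. Endothelial markers summed to 9.60, 17.3 and 7.57 CPM, and early myeloid precursor markers to 49.8, 34.9 and 174 CPM. When cells with at least 2 UMIs of listed B, T and NK, macrophage and monocyte, dendritic, epithelial or endothelial markers were left out (43.7%, 41.0% and 28.8% of the cells), AT3-gcsf against naive was -2.40 for H2-Q10, -1.33 for B2m and -1.13 for H2-K1. The part of free RNA from such cells was not tested.

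Across the 9 populations, the genes whose level followed the 10 most closely were Csf3r, the G-CSF receptor (Pearson r 0.990), Skint3 (0.990), Msrb1 (0.989), Marcks (0.988) and Itga4 (0.985). The r is that of log2(CPM + 5) with the mean standardised profile of the 9 members that reached 20 CPM, over 9 populations that share 3 libraries, among 4837 genes. Csf3r ran from 555 CPM in naive MHTO4 to 3196 CPM in naive MHTO3. It is a description with no test.

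Hashtag antibodies bind the cell surface, and what they bind is not given in the labels, so the hashtag count of each cell was set beside class I RNA. In the 25% of cells with most hashtag counts of their population against the 25% with fewest, H2-K1 was higher in 9 of 9 populations (log2 ratios 0.13 to 0.60, median 0.36) and B2m in 9 of 9 (median 0.21). H2-D1 was higher in 7 of 9 (median 0.07) and Ptprc, which encodes CD45, in 8 of 9 (median 0.10). The median of all genes ran from -0.02 to 0.24; H2-K1 and B2m were above it in 9 of 9 populations, Ptprc in 6 and H2-D1 in 3. None of these differences reached 2-fold. Among cells in the middle range of UMIs per cell H2-K1 was higher in 9 of 9 again (0.07 to 0.52).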

How the data were processed

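Gene expression libraries came from 10x Chromium version 3 chemistry. Per the submitters' processing notes, bcl2fastq 2.20.0.422 and Cell Ranger 4.0.0 were used with mm10. The matrices the authors deposited hold unnormalized UMI counts for every gene in every called cell, and hashtag counts per barcode; no source used here describes the counting settings. Each hashtag matrix was joined by barcode to the library where a dominant tag was found for 94.1% to 97.4% of barcodes. The tag rule removes doublets of different tags only where no tag reaches the required share of the counts. Tag counts differed within a lane. In AT3 cells with fewest and with most counts of their tag, medians were 687 and 1345 for MHTO8. For MHTO10 they were 120 and 265. A doublet of such tags can pass as a cell of the tag with more counts, and how many did was not tested. No doublet caller was run, and doublets within a tag remain. Counts of kept cells were summed, scaled to CPM of the same sum and compared as log2 ratios after adding 5 CPM, in Python 3.11.15 with NumPy 2.4.6 and SciPy 1.17.1. The call was tested on simulated data. Named genes are the 10 members, listed pathway genes called in any library comparison (at most 6 per list and comparison; the granule genes by count and leading gene only) and the 5 most like the member profile; H2-T23, and the granule-low values, were chosen after their values were seen; some listed genes are not reported here. The members and lists were chosen with earlier results of these data known. Promoters come from RefSeq (GRCm38.p6) and positions from GENCODE vM21 (GRCm38); Tap2 and Nlrc5 had no promoter entry. Alternatives were another pseudocount, minimum, scaling (edgeR 4.0.16 TMM factors, R 4.3.3), gate, tag rule, cell filters, thinning, weighting and each population left out. The depth is 26566384 to 89053674 UMIs per library, and all intervals cover counting error only.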

Additional observations from a re-analysis of the deposited data

Results flagged for a closer look

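H2-D1 and Psmb9 moved in opposite directions, by at least 0.3 on the log2 scale each way, in different populations of AT3-gcsf against naive. H2-D1 differed by -0.40 in the Cxcl2-rich, 0.80 in the Camp-rich and -0.45 in the remaining population. Psmb9 differed by -0.18, 0.49 and -0.53 in the same order. The median of all genes was -0.44, -0.04 and -0.61. Both genes lay above that median in each population, so neither changed direction relative to it. Each value sets 1 population against 1, and the difference between populations was not tested. The naive Camp-rich population held 57.7% granule-high cells and the AT3-gcsf one 15.1%.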

How the results depend on the processing

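No paired analysis was possible because each condition is 1 library and the groups share no replicates. AT3 against naive gave 1 gene, and 0 with TMM factors (H2-Q10 at -0.57), with the total taken without the 20 most abundant genes (-0.87), with all tagged cells (-0.98) and with cells thinned to 1000 UMIs (-0.86); leaving out 1 population gave 0 to 3. AT3-gcsf against naive gave 3 genes, 1 with TMM factors and 1 in cells without interferon UMIs, both H2-Q10, 2 without the 20 most abundant genes and 2 with the 5% gate (H2-K1 lost in both), and 2 to 4 with 1 population left out. AT3-gcsf against AT3 gave 1 gene, 0 in cells without interferon UMIs (whose mix of populations also differs), and 0 to 2 with 1 population left out. H2-Q10 was negative under every setting run in the 3 comparisons. H2-D1 changed sign with the setting in AT3-gcsf against naive, from -0.16 to 0.62, and from -0.51 to 0.29 with 1 population left out. With TMM factors the median of all genes moved from -0.34 to 0.13 in AT3 against naive, whose calls went from 6.35% lower and 2.06% higher to 1.23% and 4.64%, and from -0.02 to 0.09 in AT3-gcsf against AT3. The cause of these moves was not tested. Of 35 values at least 2-fold higher in interferon-high cells, 2 of them of Nlrc5, 31 were found in 5 populations at a threshold of 10 UMIs, 29 with low cells at 1 or fewer and 30 with thinned counts; of 48 values 2-fold lower in granule-high cells, 46 were found with thinned counts and 40 in 5 populations at a threshold of 50. Nlrc5 was too shallow to compare, at 245 to 315 UMIs per library.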
